A study of Mus musculus with 15 samples.

Results

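Spdef encodes an ETS-family transcription factor of secretory epithelia, and its locus was described here through every peak that overlapped a window of 40 kb around the gene, on mouse chromosome 17 from 27840000 to 27880000 (build mm9). The gene lies at about 27851000 to 27866000 on the minus strand, a position known here to the nearest kb, so its start is at the higher coordinate. Of 778471 peaks in 12 lists, 85 overlapped the window. They were chosen by position alone. Of these 85, 76 were overlapped by a peak of at least 1 other list, against 93.0% of all peaks.

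Each list came from 1 library of intestinal epithelium from C57BL/6 mice. H3K4me2, which histones carry at promoters and at poised or active enhancers, was mapped by chromatin immunoprecipitation in Lgr5+ stem cells of the crypt (ISC), secretory progenitors (Sec-Pro, 1 library after deletion of Rbpj and 1 after treatment with the Notch inhibitor dibenzazepine, DBZ), enterocyte progenitors (Ent-Pro, replicates 1 and 2), goblet cells of the villus (GOB) and enterocytes of the villus (ENT). H3K27ac, an acetylation found at regulatory DNA in use, and DNase I hypersensitive sites (DHS), where chromatin is open, were mapped in 1 library each of Sec-Pro and Ent-Pro, and ATOH1 in 1 library of Sec-Pro with an antibody against FLAG. ISC were sorted for green fluorescent protein from Lgr5-eGFP-Cre mice, GOB came from Rbpj-/- villi, and Ent-Pro and ENT came from Atoh1-/- crypts and villi, which lack secretory cells. The labels do not give the age of the mice, the Cre line and time of the deletions, what carried the FLAG tag, or which preparation of Sec-Pro served for H3K27ac, DHS and ATOH1. Lineage and genotype or treatment therefore cannot be told apart between secretory and absorptive cells. No sort is stated for Sec-Pro, so in these bulk libraries a mark in few cells and a weak mark in many cells cannot be told apart. RNA was not measured, and the cell labels were not checked against marker genes.

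The score of a peak is the authors' own and was used within a list only, as the percentile of that list's peaks with a lower score. The lists held from 15240 peaks (ATOH1) to 92279 peaks (H3K4me2 of DBZ-treated Sec-Pro), and their read numbers are unknown. A site without a peak was therefore not detected at a depth that cannot be stated. The shortest peak was 200 bp in the H3K4me2 lists of Rbpj-deleted Sec-Pro and Ent-Pro replicate 2 and in the H3K27ac and DHS lists, and 146 bp in the other H3K4me2 lists. Sec-Pro and Ent-Pro are compared below between lists of the same shortest peak, except where stated. With 1 library for every group except Ent-Pro H3K4me2 (n = 2), no test between groups could be made.

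In the intestine, Notch signals between neighbouring crypt cells keep Atoh1 off in cells that become enterocytes, and cells that escape them turn on Atoh1 and enter the secretory lineage. ATOH1 is a basic helix-loop-helix factor that binds E-box sequences. Spdef acts downstream of Atoh1 in this lineage and is known for promoting the maturation of goblet and Paneth cells. In the gene table of build GRCm38.p6, the protein-coding genes on either side of Spdef are Pacsin1, beyond its 3' end, and Ilrun, upstream. No annotation of mm9 was at hand, so whether a peak lies in an exon, an intron or a neighbouring gene was not determined.

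The promoter of Spdef is shown because peaks of DHS, H3K27ac and ATOH1 in Sec-Pro lay within 1 kb of the gene start. These are the 250 bases before the start, from RefSeq on GRCm38.p6, and they were not placed on mm9. The capitals mark the single TGGGAA, the core of the site bound by RBPJ, the DNA-binding partner of Notch.
Spdef promoter, chr17:27728952-27729201, minus strand: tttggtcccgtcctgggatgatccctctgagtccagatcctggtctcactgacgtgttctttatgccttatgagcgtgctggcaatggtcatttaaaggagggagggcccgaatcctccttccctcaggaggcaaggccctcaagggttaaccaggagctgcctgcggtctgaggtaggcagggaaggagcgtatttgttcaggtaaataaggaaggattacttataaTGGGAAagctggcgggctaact
Searched on both strands, the E-box CANNTG was found 0 times, as were its forms CAGCTG and CAGATG, which are contained in CANNTG. Of 32851 RefSeq promoter windows of the same length, 66.2% hold a CANNTG, 13.0% a CAGCTG and 14.4% a CAGATG. The TGGGAA begins 22 bases before the start, and 21.6% of the windows hold one on either strand. This motif was chosen after the sequence had been seen. A match is a description of letters, and the absence of one says only that these letters are not in this stretch.

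H3K4me2 peaks covered more of the Spdef window in the GOB list than in any other H3K4me2 list. They covered 18582 bp in GOB (16 peaks), 8013 bp in DBZ-treated Sec-Pro (14 peaks), 3332 bp in Rbpj-deleted Sec-Pro (6 peaks), 2956 and 1692 bp in Ent-Pro replicates 1 and 2 (6 and 3 peaks), 2751 bp in ENT (3 peaks) and 831 bp in ISC (3 peaks). The covered length in GOB was thus 6.75 times that in ENT, 2.32 times that in DBZ-treated Sec-Pro and 5.58 times that in Rbpj-deleted Sec-Pro. The last ratio is between unlike lists. The GOB list has a shortest peak of 146 bp and 86922 peaks, that of Rbpj-deleted Sec-Pro 200 bp and 63293 peaks. Over the whole genome the GOB list covered 64.4 Mb and the ENT list 69.5 Mb, and the median score percentile of the window's peaks was 48.9 in GOB and 53.6 in ENT. Each list was called on 1 library of unknown depth, so a covered length counts bases called and does not give the amount of the mark. Ent-Pro averaged 2324 ± 894 bp (SD, n = 2). The Ent-Pro lists differ in their shortest peak (146 and 200 bp) and in length (85881 and 64138 peaks). Calling and replicate differences therefore cannot be told apart in the spread between them. Between lists of the same shortest peak, DBZ-treated Sec-Pro exceeded Ent-Pro replicate 1 by 5057 bp and Rbpj-deleted Sec-Pro exceeded Ent-Pro replicate 2 by 1640 bp, while the Ent-Pro libraries differed by 1264 bp. Against Ent-Pro replicate 1, whose shortest peak is smaller, Rbpj-deleted Sec-Pro was higher by 376 bp.

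**Figure D1:**
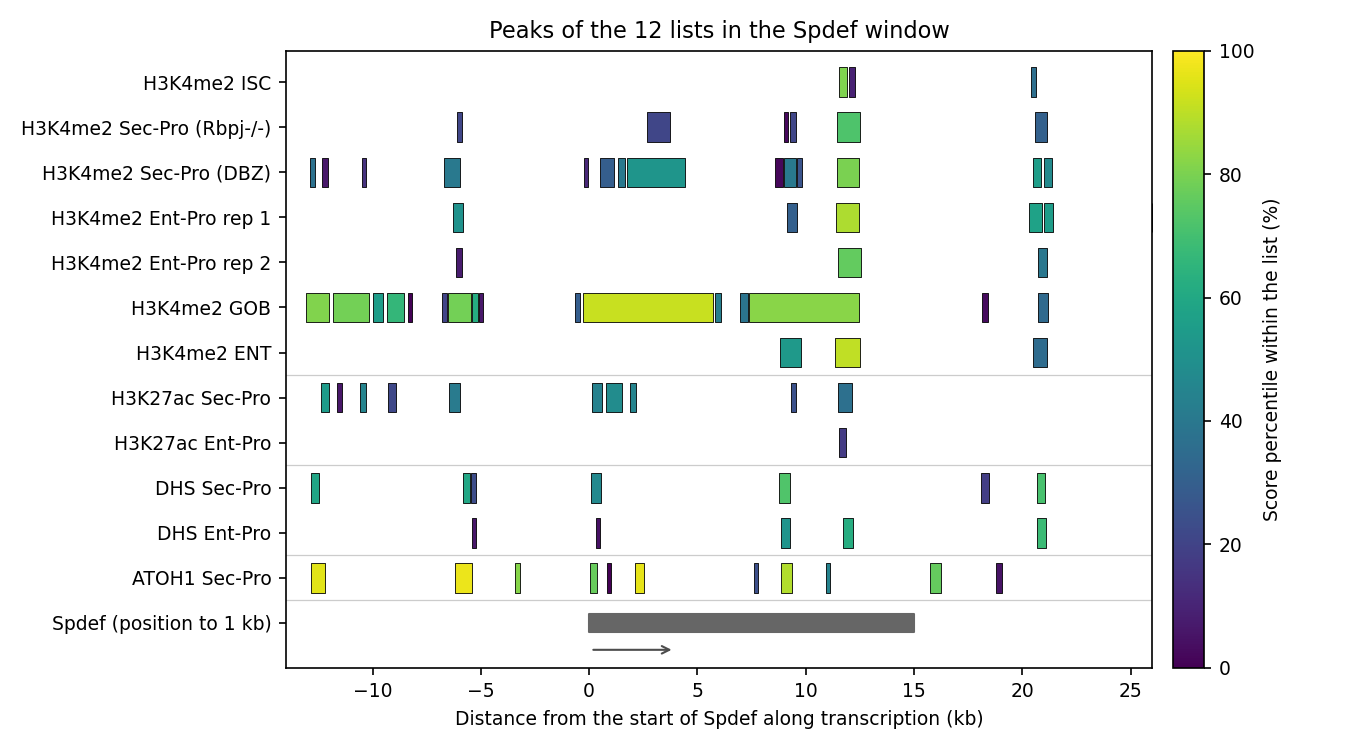
Peaks of the 12 lists by distance from the start of Spdef along transcription (kb; negative values lie upstream), 1 row per library, coloured by the percentile of the peak's score within its list; the grey bar is the gene. GOB peaks cover most of the gene and stretch upstream, the element 12 kb inside the gene has H3K4me2 in all 7 lists, and 11 ATOH1 peaks are spread over the window.

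To see how common such lengths are, the genome was divided into 66036 consecutive windows of 40 kb. A covered length at least that of the Spdef window was found in 0.167% of windows in GOB, against 2.79% in DBZ-treated Sec-Pro, 8.86% in Rbpj-deleted Sec-Pro, 13.3% and 17.0% in Ent-Pro replicates 1 and 2, 12.6% in ENT and 18.6% in ISC. Many windows hold no peak at all. Among the windows with a peak of the same list, the shares were 0.501% in GOB, 7.42% in DBZ-treated Sec-Pro, 28.4% in Rbpj-deleted Sec-Pro, 37.1% and 53.6% in Ent-Pro replicates 1 and 2, 37.0% in ENT and 63.3% in ISC. The Spdef window thus lay far up the GOB list, high in the DBZ-treated Sec-Pro list and in the middle of the ISC, Ent-Pro and ENT lists. In Rbpj-deleted Sec-Pro its share was nearer to those of Ent-Pro replicate 1 and ENT than to that of DBZ-treated Sec-Pro. The difference between GOB and ENT, 15831 bp, ranked 2 of 66036, and 2 windows (0.00303%), that of Spdef included, reached it. The other was on chromosome 8 at 12920001 to 12960000, with 16850 bp. For DBZ-treated Sec-Pro minus Ent-Pro replicate 1, and Rbpj-deleted Sec-Pro minus Ent-Pro replicate 2, 12 and 187 windows reached the difference at Spdef. These ranks describe a locus that was proposed with earlier results of these data known.

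**Figure D2:**
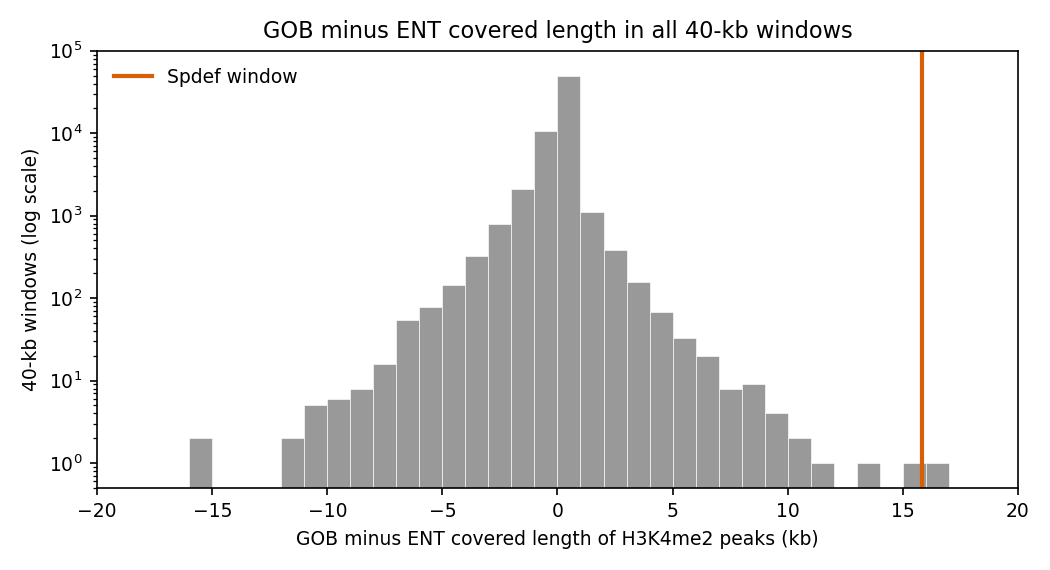
GOB minus ENT covered length of H3K4me2 peaks (kb, horizontal axis) in all 66036 windows of 40 kb, with the number of windows on a log scale. The Spdef window, at 15831 bp (vertical line), stands at the GOB end, with 1 window beyond it.

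The highest-scoring GOB peak spanned the start of the gene. It ran from 27860300 to 27866268 (5969 bp, score 136, percentile 91.5) and was wider than 99.6% of GOB peaks. In this stretch DBZ-treated Sec-Pro had 4 peaks, which covered 64.3% of it, the widest of them 2691 bp (score 15.5, percentile 52.2). Rbpj-deleted Sec-Pro had 1 peak, from 27862287 to 27863316, which covered 17.3% (score 6.62, percentile 20.8). ISC, both Ent-Pro libraries and ENT had 0 peaks in it. The first 6.0 kb or so of Spdef thus held H3K4me2 peaks in each of the secretory libraries and in none of the others, with low to middle scores in the progenitors.

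A further wide GOB peak covered the 3' part of the gene, from 27853522 to 27858604 (5083 bp, score 67.4, percentile 82.2). It differed from the peak at the gene start in that every other H3K4me2 list had peaks inside it. They covered 41.7% of it in DBZ-treated Sec-Pro, 41.2% in ENT, 30.1% and 19.3% in Ent-Pro replicates 1 and 2, 29.7% in Rbpj-deleted Sec-Pro and 12.2% in ISC.

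A large part of that sharing came from 1 element about 12 kb inside the gene. It was the peak with the highest score in the window in ISC (27854109 to 27854476, score 13.1, percentile 80.7), in Rbpj-deleted Sec-Pro (27853497 to 27854546, score 35.8, percentile 72.0), in DBZ-treated Sec-Pro (27853536 to 27854558, score 68.7, percentile 79.9), in Ent-Pro replicate 1 (27853545 to 27854580, score 109, percentile 87.6), in Ent-Pro replicate 2 (27853454 to 27854502, score 45.8, percentile 76.0) and in ENT (27853493 to 27854652, score 107, percentile 90.6). Its position and width, 1023 to 1160 bp outside ISC and GOB, hardly differed between these libraries. Spdef thus holds a site with H3K4me2 in absorptive cells as well as in secretory cells. It also holds a 5' part where H3K4me2 peaks were found in the secretory libraries alone.

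Upstream of the gene, GOB had 10 peaks by midpoint. GOB peaks covered 6409 bp there, a small part of it by the end of the gene-start peak, which reaches 27866268. Of these 10, 0 were overlapped by ENT (75.2% of all GOB peaks) or ISC (42.2%) and 4 by DBZ-treated Sec-Pro (67.5%). Rbpj-deleted Sec-Pro (56.4%) and Ent-Pro replicates 1 and 2 (68.1% and 56.9%) each overlapped 1. That 1 peak, from 27871467 to 27872515 (score 50.3, percentile 78.8), was the same in the 3 cases and lay 6.0 kb upstream. It was marked at percentile 20.8 in Rbpj-deleted Sec-Pro, 50.8 in Ent-Pro replicate 1 and 7.62 in Ent-Pro replicate 2. Farther out, the peaks from 27876159 to 27877845 (score 50.3, percentile 78.8) and from 27877997 to 27879086 (score 60.9, percentile 81.0) were marked otherwise in DBZ-treated Sec-Pro alone among the H3K4me2 lists. The DBZ-treated Sec-Pro peaks were at percentile 14.1 in the former, and at 6.48 and 37.5 in the latter.

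**Figure D3:**
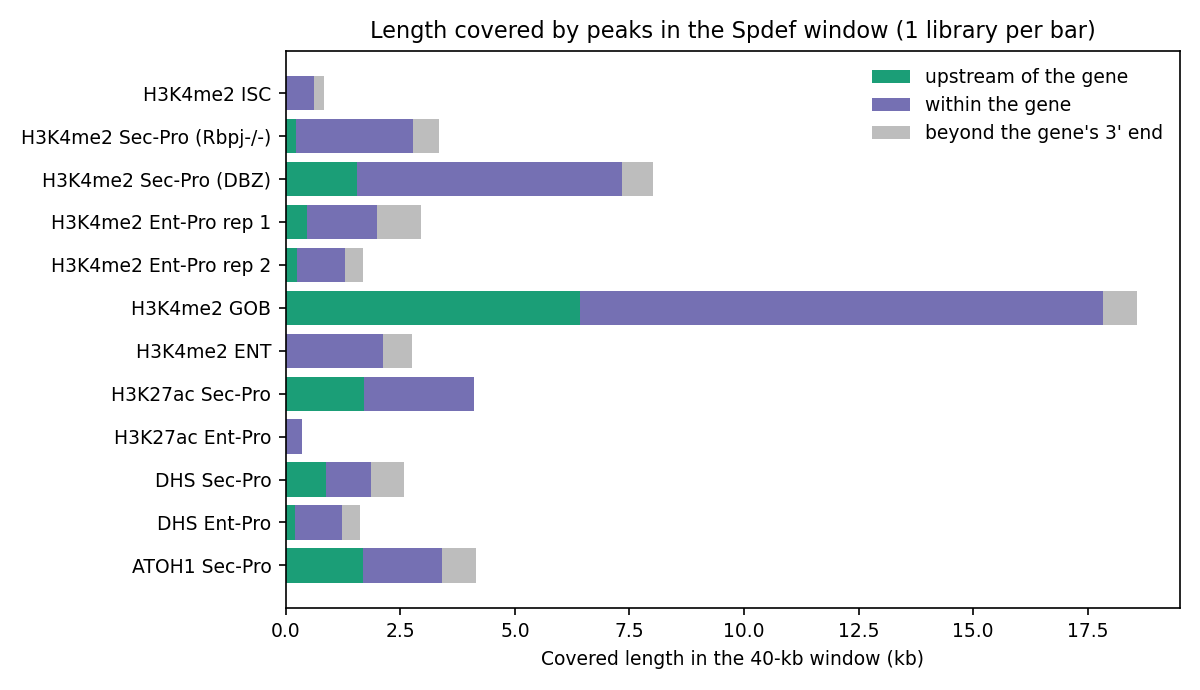
Length covered by peaks in the 40-kb window (kb, horizontal axis) in each of the 12 lists, 1 library per bar, divided into the parts upstream of the gene, within it and beyond its 3' end. GOB reaches 18582 bp, of which 6409 bp lie upstream, where ISC and ENT have none.

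Counted by peaks, 14 of 16 GOB peaks of the window were overlapped by no ENT peak, against 24.8% [24.5 to 25.1] of all GOB peaks (Wilson 95% interval, counting error only). Overlap by DBZ-treated Sec-Pro held for 7 of 16 (67.5% of all GOB peaks), by Rbpj-deleted Sec-Pro for 4 (56.4%), by Ent-Pro replicates 1 and 2 for 3 each (68.1% and 56.9%) and by ISC for 1 (42.2%). Peaks of the window that belong to 1 mark in 1 library are neighbours and not independent. Of the 16 GOB peaks, 6 were overlapped by no other list of any assay, against 11.8% of all GOB peaks.

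In the reverse direction, nearly all H3K4me2 peaks of the window, whatever the list, were overlapped by GOB peaks, which covered 46.5% of it. This held for 14 of 14 peaks of DBZ-treated Sec-Pro (65.5% of all peaks of that list), 6 of 6 of Rbpj-deleted Sec-Pro (80.9%), 6 of 6 and 3 of 3 of Ent-Pro replicates 1 and 2 (68.4% and 79.0%), 3 of 3 of ENT (70.8%) and 2 of 3 of ISC (80.4%). The Ent-Pro replicate 1 peak from 27839626 to 27840010 crosses the window's edge. The GOB peak that overlaps it ends 66 bp outside the window. Between lists of the same shortest peak, 8 of 14 DBZ-treated Sec-Pro peaks were missing from Ent-Pro replicate 1 (18.4% of all), and 3 of 6 Rbpj-deleted Sec-Pro peaks from Ent-Pro replicate 2 (13.7% of all). Beyond 6.3 kb upstream, DBZ-treated Sec-Pro had 3 peaks, and the other progenitor lists of H3K4me2 had 0. These 3 were at percentiles 14.1, 6.48 and 37.5 of the longest H3K4me2 list. Only the last of them remained when the H3K4me2 lists were cut to equal length by score.

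H3K27ac peaks at Spdef were found almost entirely in the Sec-Pro list. The Sec-Pro list had 10 peaks that covered 4096 bp, and the Ent-Pro list 1 peak of 343 bp, an 11.9-fold difference in length. At least as much was covered in 7.31% of 40-kb windows in Sec-Pro and in 26.9% in Ent-Pro. Among the windows with a peak of the same list, the shares were 26.4% in Sec-Pro and 91.4% in Ent-Pro. Of the 10 Sec-Pro peaks, 9 were overlapped by no Ent-Pro peak, against 20.2% of all Sec-Pro peaks. The single shared site was the element 12 kb inside the gene, with Sec-Pro from 27853855 to 27854509 (score 7.80, percentile 36.4) and Ent-Pro from 27854143 to 27854485 (score 5.87, percentile 17.2).

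Apart from that site and 1 peak at 9.4 kb inside the gene, the Sec-Pro H3K27ac peaks fell into groups at the gene start (3 peaks) and upstream (5 peaks). At the start lay peaks at 27863832 to 27864136 (score 9.48), 27864473 to 27865235 (score 10.4) and 27865414 to 27865849 (score 9.07). Upstream, the highest score of the list in this window belonged to the peak at 27878017 to 27878392 (score 12.1, percentile 54.5), 12.2 kb from the start. It was the only 1 of the 10 above the median score of its list, so the acetylation was of low to middle rank. All 10 lay in GOB H3K4me2 peaks (63.6% of all Sec-Pro H3K27ac peaks did), and 6 of 10 were overlapped by an ATOH1 peak (8.74% of all).

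Open chromatin was found at 8 sites, of which 4 were open in both progenitors. Of these 4, the sites at the gene start and 5.3 kb upstream rest on Ent-Pro DHS of rank 36898 and 36312 of 38595. These Ent-Pro DHS are lost when that list is cut by score to the 31980 DHS of the Sec-Pro list. The Sec-Pro list had 7 DHS (2570 bp) and the Ent-Pro list 5 (1619 bp), lengths reached by 0.616% and 3.71% of 40-kb windows. Among the windows with a DHS of the same list, the shares were 2.30% and 12.2%. Of the Sec-Pro DHS, 3 of 7 had no Ent-Pro DHS over them (14.6% of all Sec-Pro DHS), and of the Ent-Pro DHS, 1 of 5 had no Sec-Pro DHS (29.8% of all Ent-Pro DHS).

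The sites differed in their relation to the gene. Beyond the 3' end, 20.9 kb from the start, the DHS was of like rank in both, at percentile 70.9 in Sec-Pro (27844954 to 27845312, score 58.0) and 68.3 in Ent-Pro (score 40.5). Every H3K4me2 list had a peak at or next to it, and neither H3K27ac nor ATOH1 was found there. The DHS about 9 kb inside the gene was at percentile 72.6 in Sec-Pro (27856724 to 27857242, score 63.5) and 51.7 in Ent-Pro (score 17.2). At the gene start the DHS was at percentile 47.2 in Sec-Pro (27865463 to 27865929, score 18.5) and 4.38 in Ent-Pro (score 5.21), and 5.3 kb upstream the percentiles were 23.3 and 5.87. The Ent-Pro DHS at both of these last places were 200 bp wide, the shortest that the list holds.

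Sites open in 1 progenitor alone lay in different parts of the locus. Those found in Sec-Pro alone were 5.7 kb upstream (27871510 to 27871810, score 31.5, percentile 59.7), 12.7 kb upstream (27878480 to 27878831, score 30.1, percentile 58.8) and beyond the 3' end at 18.3 kb (27847546 to 27847896, score 9.22, percentile 18.1). Both of the upstream ones were overlapped by ATOH1 peaks, and the last coincided with a weak GOB H3K4me2 peak (score 3.46, percentile 3.01). The site found in Ent-Pro alone was the shared H3K4me2 element 12 kb inside the gene (27853823 to 27854269, score 28.2, percentile 62.2). This element thus had H3K4me2 in all 7 lists and H3K27ac in both progenitors, while a DHS was detected in Ent-Pro and not in Sec-Pro.

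**Figure D4:**
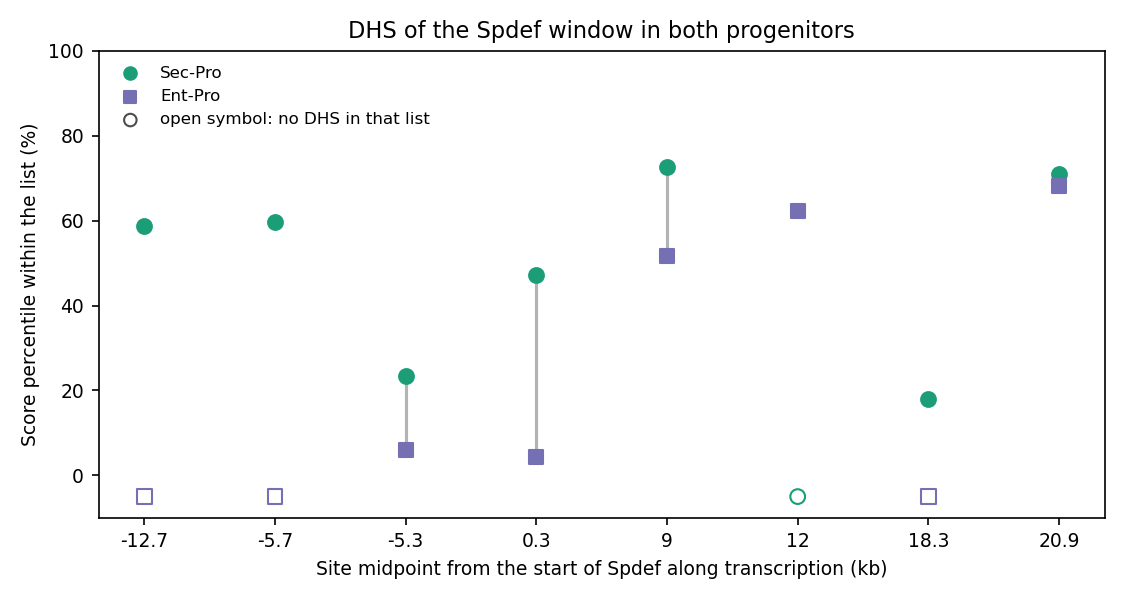
Score percentile within its own list (vertical axis, %) of each of the 8 DHS sites in Sec-Pro (circles) and Ent-Pro (squares), ordered by distance from the start of Spdef (kb); open symbols below 0 mark a list without a DHS at the site. At the gene start the percentile is 47.2 in Sec-Pro and 4.38 in Ent-Pro, while beyond the 3' end at 20.9 kb it is 70.9 and 68.3.

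ATOH1 had 11 peaks across Spdef in Sec-Pro. As many ATOH1 peaks or more, counted by midpoint, were found in 12 of 66036 windows of 40 kb (0.0182%), that of Spdef included, and as much covered length, 4145 bp, in 6 (0.00909%). Among the 9218 windows with an ATOH1 peak, the share for covered length was 0.0651%. The midpoints spanned 31.4 kb, with a median spacing of 2704 bp. The peaks lay upstream (3), within the gene (6) and beyond its 3' end (2).

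The 3 strongest were among the upper 5% of the ATOH1 list. The first lay 5.8 kb upstream, from 27871417 to 27872200, with a score of 53.9 (rank 420 of 15240, percentile 97.2). The next lay 2.3 kb inside the gene, from 27863479 to 27863887, with a score of 45.8 (rank 563). Another lay 12.5 kb upstream, from 27878176 to 27878840, with a score of 41.9 (rank 657). Each of them was overlapped by H3K4me2 in GOB and in DBZ-treated Sec-Pro and by Sec-Pro H3K27ac, and none by H3K4me2 in ENT or ISC or by Ent-Pro H3K27ac. The first was also overlapped by H3K4me2 in both Ent-Pro replicates and in Rbpj-deleted Sec-Pro, and the other two were not.

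A middle group followed. The peak 9.1 kb inside the gene (27856633 to 27857159, score 21.6, percentile 88.4) was the only 1 of the 11 overlapped by ENT H3K4me2. It was also marked in both Sec-Pro libraries, Ent-Pro replicate 1 and GOB, and not in ISC or Ent-Pro replicate 2. The peak at 0.2 kb (27865660 to 27865959, score 12.3, percentile 76.8) lay at the gene start, under the Sec-Pro DHS and H3K27ac. Peaks 3.3 kb upstream (27869212 to 27869445, score 15.0, percentile 81.8) and beyond the 3' end at 16 kb (27849775 to 27850249, score 12.2, percentile 76.6) were overlapped by no other list, as was the weak peak at 18.9 kb (score 3.21). These 3 of 11 stand beside 27.2% of all ATOH1 peaks. The remaining ones, 0.9, 7.7 and 11 kb inside the gene, had scores of 2.24, 4.53 and 6.03.

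**Figure D5:**
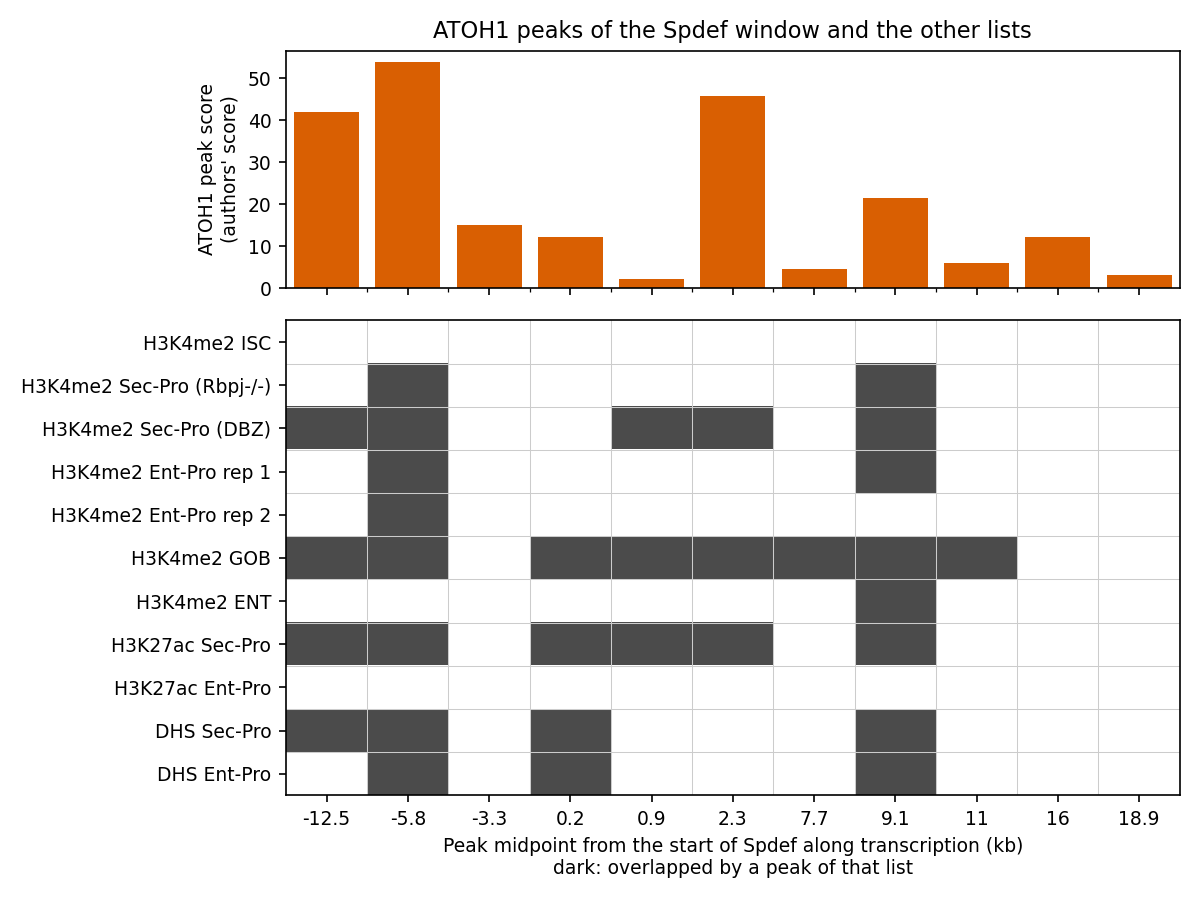
The upper panel gives the authors' score of each of the 11 ATOH1 peaks, ordered by distance of the midpoint from the start of Spdef (kb); in the lower panel a dark cell means that a peak of the list named at the left overlaps it. The peaks with scores of 53.9, 45.8 and 41.9 are dark in GOB and Sec-Pro H3K27ac, and the rows of ISC H3K4me2 and Ent-Pro H3K27ac are empty.

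Of the 11 ATOH1 peaks of the locus, ENT H3K4me2 overlapped 1, against 55.0% of all ATOH1 peaks. GOB H3K4me2 overlapped 8, near the 62.8% of all. GOB without ENT held for 7 of 11 (9.14% of all), and ENT without GOB for 0 (1.37% of all). Sec-Pro H3K27ac overlapped 6, near the 47.7% of all, and Ent-Pro H3K27ac 0 (51.4% of all). For H3K4me2 in crypt cells the numbers were 5 in DBZ-treated Sec-Pro (58.9% of all), 2 in Rbpj-deleted Sec-Pro (48.8%), 2 and 1 in Ent-Pro replicates 1 and 2 (58.1% and 49.7%) and 0 in ISC (37.7%).

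Open chromatin under ATOH1 was close to what the whole ATOH1 list showed. A Sec-Pro DHS overlapped 4 of 11 peaks (33.9% of all) and an Ent-Pro DHS 3 (37.0% of all). DHS of both progenitors overlapped 3 (31.7% of all), of Sec-Pro alone 1 (2.17%), of Ent-Pro alone 0 (5.28%) and of neither 7 (60.8%). The overlap with Ent-Pro DHS was small at 2 of its 3 peaks, with 19 bp at the gene start and 1 bp at the peak 5.8 kb upstream, against 270 and 328 bp with Sec-Pro DHS. With the central 200 bp of the ATOH1 peaks, 1 in place of 3 overlapped an Ent-Pro DHS. The second strongest ATOH1 peak, 2.3 kb inside the gene, had a DHS in neither progenitor.

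The surroundings were compared to see how far the pattern reached. In the 100 kb on either side of the window, 39 of 60 GOB peaks were overlapped by ENT, against 2 of 16 in the window. Over the whole genome, ENT overlapped 75.2% of GOB peaks. The count of 60 pools both sides, so it does not place the end of the pattern. Past the upstream edge, the next GOB peak lay 176 bp away (score 5.60). There the next DBZ-treated Sec-Pro peak lay 17063 bp away and the next ENT peak 26142 bp. Covered shares of H3K4me2 in GOB and ENT were 11.7% and 9.27% on the side of the gene's 3' end, 32.8% and 28.9% on the upstream side, and 46.5% and 6.88% within the window. ATOH1 peaks numbered 3 and 4 on these sides, against 11 in the shorter window.

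The state of the other 11 lists at the GOB peak over the gene start was then looked for across the genome. Of 86922 GOB peaks, 107 (0.123%) had peaks in both Sec-Pro lists and in none of the Ent-Pro and ENT lists. Among these 107 the peak at Spdef had the highest score (136, next 70.6) and was the widest (5969 bp, next 4191 bp, median 218 bp), and 8 had an ATOH1 peak (7.48%, against 9.46% of all GOB peaks). The peak at Spdef had been picked as the highest-scoring GOB peak of its window, and the rule follows its state. Its membership was therefore fixed in advance, and its rank is a description only. Without Ent-Pro replicate 1, the longer of the Ent-Pro lists, the count was 715. The peak at Spdef no longer met the rule when an overlap of 50% of the GOB peak was required, when peaks within 1 kb were merged, or in the upper 50% of each list by score. Requiring also no ISC peak, and H3K27ac in Sec-Pro but not in Ent-Pro, left 6, that of Spdef included. The exact state of all 11 lists, with ATOH1 and a DHS in both progenitors, was found at 1 GOB peak (0.00115%), that of Spdef. This state was read from that peak, so its own match was fixed in advance. Its Ent-Pro DHS has rank 36898 of 38595 and is lost when the DHS lists are cut to equal length by score.

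No other GOB peak shared the whole pattern, and those nearest to it had 10 of the 11 lists in the same state. There were 3, and this looser rule was chosen after the exact one had found no other. They lay on chromosome 15 at 79832022 to 79832496 (GOB score 16.8), on chromosome 6 at 93862502 to 93863186 (score 13.3) and on chromosome 6 at 84052028 to 84052298 (score 5.60). The first and the last lacked H3K27ac in Sec-Pro, and the other had H3K4me2 in Ent-Pro replicate 1. Their widths, 475, 685 and 271 bp, were far below that at Spdef, and a wide peak meets other lists more readily than a short one.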

How the data were processed

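The submitters' processing notes name CASAVA 1.7 and, for genome build mm9, Bowtie 0.12.7 with MACS2 as the peak caller. Their parameters, and any use of input DNA as background, are not stated there, and the 3 input samples were not analysed here. The authors deposited 1 peak list per library, with 5 columns and no header. The last column is the authors' score, whose scale the deposited files do not name. Its lowest value lay between 2.00 and 2.72.

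Peaks overlapping the window by at least 1 bp were taken. Covered length is the merged length clipped to the window. Positions are 1-based. Overlaps, ranks within a list and ranks among 40-kb windows were computed with NumPy 2.4.6, Wilson intervals with SciPy 1.17.1 and figures with matplotlib 3.10.9, all under Python 3.11.15. All peaks of the window were named by rule, as were GOB peaks in the same state in the 11 other lists. The window, lists and comparisons were chosen with earlier results of these data known. The overlap count was tested on a simulated list, a copy of the GOB list of 86922 with 800 peaks removed, and 800 were found missing. This check covers whole missing peaks and does not cover partial overlaps. Nothing says that the Ent-Pro replicates came from separate animals. Alternatives were score and length limits on the lists, overlap, merging, window size and leaving out Ent-Pro replicates. After the data were seen, progenitor lists of the same shortest peak were added.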

Additional observations from a re-analysis of the deposited data

How the results depend on the processing

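Covered length in the window stayed within 1.5 times of the reported value in all 12 lists when lists of 1 assay were cut to equal length by score, when only peaks with at least 50% of their length in the window were kept and when peaks within 1 kb were merged. Read numbers are unknown, so no depth correction was possible. In the upper 50% of each list by score, covered length was 368 bp in ISC, 1050 in Rbpj-deleted Sec-Pro, 4042 in DBZ-treated Sec-Pro, 1049 in Ent-Pro replicate 2, 376 and 0 for H3K27ac in Sec-Pro and Ent-Pro, and 1531 for Sec-Pro DHS. Peak numbers there were 1 in ISC, 1 and 3 in Rbpj-deleted and DBZ-treated Sec-Pro, 1 in Ent-Pro replicate 2, 8 in GOB, 1 and 0 for H3K27ac, 4 and 3 for DHS in Sec-Pro and Ent-Pro, and 7 for ATOH1. With the gene and 5 kb on either side as the window, covered length was 1530 and 1049 bp in Ent-Pro replicates 1 and 2, 12332 in GOB, 2395 for Sec-Pro H3K27ac, 1337 and 1022 for DHS in Sec-Pro and Ent-Pro, and 2696 for ATOH1. Peak numbers there were 8 in DBZ-treated Sec-Pro, 2 and 1 in Ent-Pro, 7 in GOB, 5 for Sec-Pro H3K27ac, and 3 and 3 for DHS. With lists of equal length, DBZ-treated Sec-Pro had 8 peaks and Ent-Pro DHS 3. The Ent-Pro DHS lost were those at the gene start and 5.3 kb upstream, which left these sites with a DHS in Sec-Pro alone. With peaks merged, the numbers were 7 in DBZ-treated Sec-Pro, 5 in GOB and 6 for Sec-Pro H3K27ac. GOB peaks found in both Sec-Pro lists and in no Ent-Pro or ENT list, 107 as reported, numbered 27 in the upper 50% by score, 45 with peaks merged, 2126 for the lists of DBZ-treated Sec-Pro and Ent-Pro replicate 1 alone, and 881 for those of Rbpj-deleted Sec-Pro and Ent-Pro replicate 2 alone. Leaving out 1 Ent-Pro replicate gave 143 to 715. The peak at the start of Spdef no longer met this rule in the upper 50% by score, with peaks merged or with an overlap of 50% of the GOB peak, where 0 GOB peaks of the window did. ATOH1 peaks under an Ent-Pro DHS numbered 1 in place of 3 with an overlap of 50%, with the central 200 bp and in the upper 50% by score. No paired analysis was possible because only Ent-Pro H3K4me2 has numbered replicates.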

Other observations

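At the edges of the window, the peak just inside it was that of Ent-Pro replicate 1, which reached 10 bp into it (27839626 to 27840010, score 35.8, percentile 67.7). The other 6 H3K4me2 lists had a peak ending 10 to 75 bp short of it on that side, with percentiles from 52.5 to 72.3. DHS of Sec-Pro and Ent-Pro ended 114 and 145 bp short of it, and an ATOH1 peak 199 bp short of it (score 7.31). These values are given because the window's edge alone decides which of them counted. At the upstream edge, the nearest GOB peak outside lay 176 bp away (score 5.60), while the next ENT and ISC peaks lay 26142 and 53630 bp away.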
